A study of Mus musculus with 15 samples.

Results

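The genes described here are the 9 protein-coding genes of the mouse HoxC cluster, Hoxc4, Hoxc5, Hoxc6, Hoxc8, Hoxc9, Hoxc10, Hoxc11, Hoxc12 and Hoxc13, and Hotair, the long non-coding RNA transcribed from within the cluster. They were found by gene symbol and are 10 of the 56953 genes in the deposited tables. The cluster was selected on measured values, those of the muscle stem cell comparison, where Hoxc12, Hoxc13 and Hoxc11 ranked 1, 2 and 4 of 13512 genes by the signed test statistic. For that reason the muscle stem cell values are given as a description with no test, and only the values in whole muscle are tested.

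RNA was sequenced in bulk from 15 libraries of wild-type strain 129 mice, labelled as males 10 weeks old and counted at 10 animals. Muscle stem cells (MuSCs), the Pax7-expressing satellite cells that repair skeletal muscle, gave 3 libraries after autologous transplantation, in which a mouse receives its own cells, and 3 before it. The cells of the later biopsy came from an area that had received no transplant, and both groups carry the mouse numbers 5, 6 and 11. Whole quadriceps femoris, a thigh muscle, gave 6 libraries from transplanted mice (numbers 4, 14, 94, 5, 6 and 11) and 3 from sham-operated mice (3, 192 and 12). The labels do not state how the MuSCs were purified, whether they were cultured, or how long the interval between the biopsies was. A library is called by its group with the number of its mouse (after 5, sham 12). No MuSC group came from sham-operated mice, so in the MuSC contrast the transplantation, the earlier biopsy and the time between biopsies cannot be told apart.

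The libraries held between 17.1 and 23.0 M estimated counts (M, 1e6). Summed MuSC markers stood at 817 to 1328 TPM (a transcript level scaled for gene length and to a library total of 1e6) after transplantation and at 962 to 1378 TPM before it, against 45.4 to 56.9 TPM in transplanted and 52.2 to 64.8 TPM in sham muscle. The MuSC marker Calcr was at or near 0 in both MuSC groups (0 TPM in the 3 libraries after transplantation, at most 0.03 TPM before it). Sex-linked genes went against the label of male: Xist had at least 100 counts in 14 of 15 libraries, and 4 Y-linked genes together had at most 22.2 counts in any library. The 2 MuSC libraries of mouse 11 differed in Xist, with 520 counts after and 17053 before. The deposited descriptions of the MuSC libraries come in 2 naming styles, called set A (after 5, before 5 and before 11) and set B (after 6, after 11 and before 6) and the labels do not state what the styles stand for. The MuSC libraries of mouse 11 fall in different sets. Xist followed the sets in all MuSC libraries. It had 12451, 10155 and 17053 counts in after 5, before 5 and before 11, against 2328, 520 and 2283 in after 6, after 11 and before 6. Detected genes did too, with 19747 to 19900 in set A and 17873 to 18369 in set B. The sets are spread unevenly over the compared groups.

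Hox genes encode homeodomain transcription factors that give cells their position along the head-to-tail axis and along the limbs. Within a cluster they lie in the order in which they are used along the body: the genes with low numbers act towards the head, and those with high numbers towards the tail and the far end of the limb. Many adult cells, MuSCs among them, keep the Hox pattern of the place they came from. Hoxc10 and Hoxc11 are used in the lumbar and sacral region and in the hindlimb, and Hoxc13 is best known for its role in hair and nails. Human HOTAIR has been described as a partner of Polycomb repressive complex 2, which methylates histone H3 at repressed genes, and the role of the mouse transcript is debated.

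The cluster lies on mouse chromosome 15 and spans 115.7 kb in the deposited annotation. From its 5′ end the gene starts follow in the order Hoxc13, Hoxc12 (15.7 kb from the start of the Hoxc13 gene model), Hotair (23.0 kb), Hoxc11 (33.3 kb), Hoxc10 (45.7 kb), Hoxc9 (55.3 kb), Hoxc8 (69.5 kb), Hoxc6 (77.2 kb) and Hoxc4 (97.8 kb). Hotair is on the minus strand and the other 9 are on the plus strand. The Hoxc5 model is 50.0 kb long, starts at 46.3 kb, just after that of Hoxc10, and runs over 4 other members, so the values of Hoxc5 and Hoxc10 carry some uncertainty of read assignment. In the GENCODE M21 annotation the only exons shared between members are 166 bases common to Hoxc10 and Hoxc5. The 16 member values of 150 that were not whole counts were 8 of Hoxc10 and 8 of Hoxc5. The library kit as named in the labels does not mark strand, so reads of Hotair and of any unannotated transcript on the other strand cannot be told apart.

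The cluster also encodes miR-196a, a microRNA that is known to target Hox transcripts, and its sequence is shown because Hoxc8, the member with the lowest MuSC fold change, carries its sites. The precursor gene Mir196a-2 lies between Hoxc10 and Hoxc9, with the mature strand at chr15:102973365-102973386 on the plus strand of GRCm38.p6. It had 0 counts in all 15 libraries, and mature microRNAs are not captured by this kind of library. The mature sequence from RefSeq is given first, with its seed (bases 2 to 8) in capitals, and then the matches to that seed in the Hoxc8 3′ UTR of GENCODE M21, each with its 7-base match in capitals.
miR-196a-5p: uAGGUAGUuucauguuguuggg
Hoxc8 3′ UTR, match at bases 138 to 144: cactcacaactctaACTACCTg
Hoxc8 3′ UTR, match at bases 895 to 901: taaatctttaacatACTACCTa
Hoxc8 was the only member among the 9 coding genes with the 7 bases ACTACCT in its annotated 3′ UTR, read on the transcript strand. Of all 21005 genes with an annotated 3′ UTR, 1381 (6.6%) hold it. A match is a description of the sequence, and whether miR-196a was present or acted here was not tested.

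In MuSCs the 5′ end of the cluster stood higher after transplantation. Hoxc13 was at 3.65, 4.21 and 3.95 TPM after transplantation in mice 5, 6 and 11, against 0.56, 0.55 and 0.39 TPM before it. These levels rested on 116, 192 and 169 counts after and 21, 21 and 13 counts before. Every library after transplantation lay above every library before it, and the log2 fold change was 3.18 ± 0.48 (SE; after minus before), from 8.63 ± 2.46 CPM after and 0.949 ± 0.339 CPM before (counts scaled to 1e6 per library, with TMM scaling between libraries; SD, n = 3 each).

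Hoxc12, the next gene in the cluster, had counts in MuSCs only after transplantation. It had 15, 14 and 15 counts (1.33, 0.86 and 0.98 TPM) in after 5, 6 and 11, against 0 counts in before 5, 6 and 11. The counting interval (95%, exact Poisson) of 15 counts is 8.4 to 24.7. For a count of 0 a floor of 3 counts was set, or 0.141 to 0.175 CPM (without TMM scaling) in the libraries before transplantation. The counting interval of 0 counts reaches somewhat higher, to 3.69. With the floor taken once over the group, the observed level after transplantation was 15.7-fold that floor. This ratio takes no counting error for the counts after transplantation, so it is not a strict lower bound. These counts are small, but no library before transplantation held a read of this gene. Intervals and floors here cover counting error only.

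Hoxc11, a gene of the sacral and hindlimb domain, was the 5′ member with the most counts. It stood at 18.7, 16.5 and 21.8 TPM (475, 603 and 749 counts) in after 5, 6 and 11, against 9.27, 4.67 and 5.35 TPM (281, 142 and 144 counts) in before 5, 6 and 11. The groups did not overlap, the nearest libraries being after 6 and before 5. The log2 fold change was 1.83 ± 0.36 (SE), from 33.2 ± 10.1 CPM after and 9.31 ± 2.44 CPM before. In set A alone, where after 5 is set against before 5 and before 11, it was 1.32.

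Hotair, transcribed from the opposite strand between Hoxc12 and Hoxc11, was low and uneven. It had 2.10, 0.77 and 0.35 TPM (53, 28 and 12 counts) in after 5, 6 and 11, against 0.76, 0.20 and 0.64 TPM (23, 6 and 17 counts) in before 5, 6 and 11. The groups overlapped: after 11 lay below before 5 and before 11. The log2 fold change of 1.13 ± 0.66 (SE) fell to 0.55 when after 5 was left out. Hotair therefore did not share the separation of the 3 coding genes around it.

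**Figure D1:**
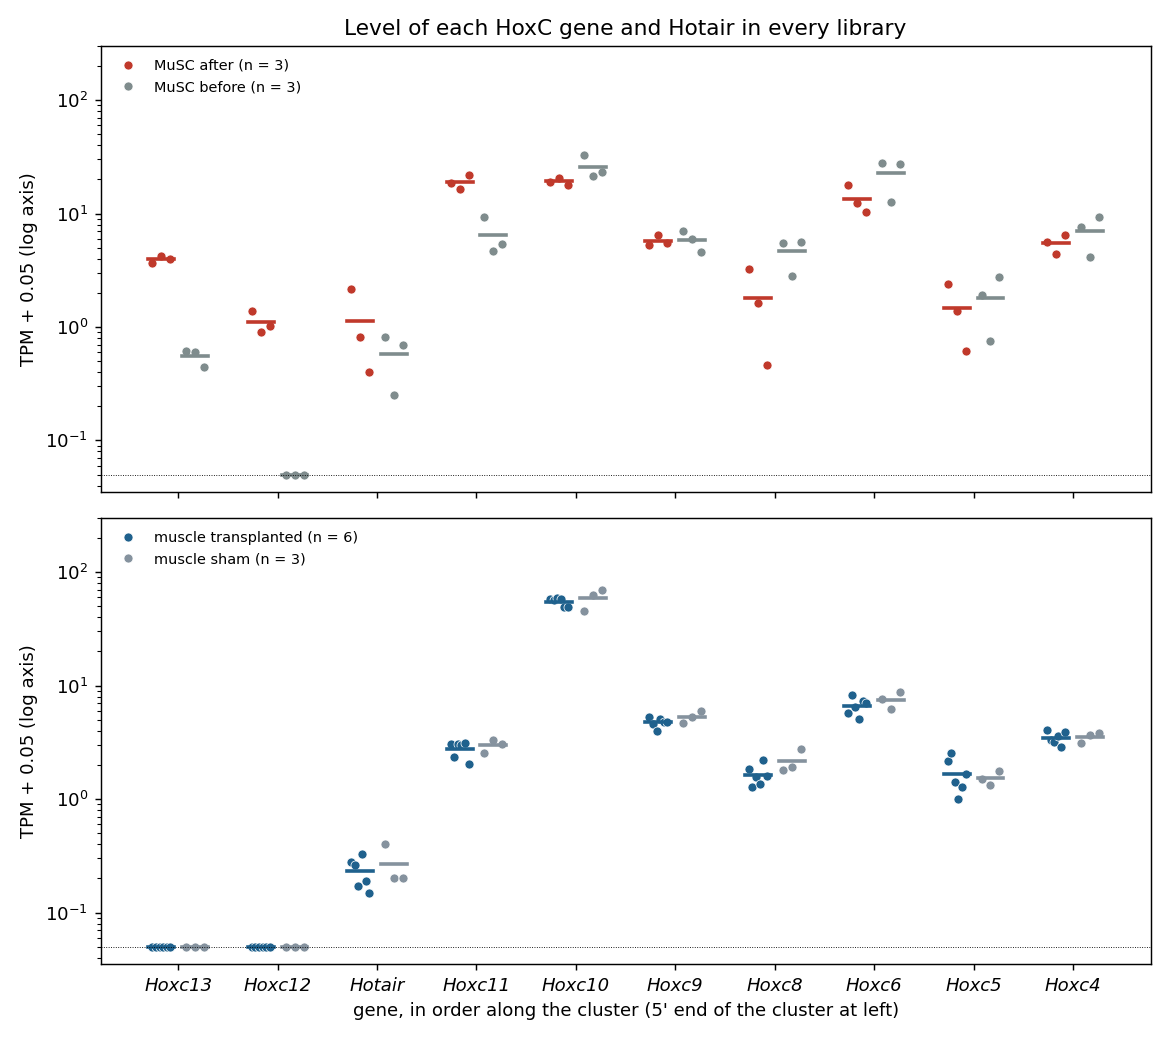
Level of each HoxC gene and Hotair in every library, as TPM + 0.05 on a log axis (dotted line: listed at 0), with genes in order along the cluster, points for libraries and short bars for group means. MuSCs are in the upper panel and quadriceps in the lower. Hoxc13 and Hoxc12 reach 3.65 to 4.21 and 0.86 to 1.33 TPM in MuSCs after transplantation and lie on the dotted line in all 9 muscle libraries.

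The middle of the cluster lay closer together between the groups. Hoxc10, the most abundant member in 4 of 6 MuSC libraries, stood at 18.9, 20.6 and 17.8 TPM in after 5, 6 and 11, against 32.9, 21.2 and 23.4 TPM in before 5, 6 and 11. In TPM the groups did not overlap, but in TMM-scaled CPM they did (22.5 to 37.5 CPM after, 29.1 to 39.7 CPM before), and the log2 fold change was -0.19 ± 0.30 (SE). Hoxc9, which patterns the trunk, was at 5.21, 6.45 and 5.46 TPM after and 6.91, 5.93 and 4.53 TPM before (0.18 ± 0.39). The order of the Hoxc10 groups thus depends on the scale, and the Hoxc9 groups overlapped on both.

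Hoxc8, a gene of the thoracic domain, and Hoxc6, of the neck-to-thorax boundary and forelimb level, were at the lower end. Hoxc8 had 3.21, 1.58 and 0.41 TPM (77, 54 and 13 counts) in after 5, 6 and 11, against 5.40, 2.79 and 5.59 TPM (154, 78 and 141 counts) in before 5, 6 and 11. Its log2 fold change was -1.29 ± 0.61 (SE), and -0.87 without after 11, the lowest library. Hoxc6 had 17.7, 12.3 and 10.3 TPM in after 5, 6 and 11, against 27.7, 12.5 and 27.5 TPM in before 5, 6 and 11 (-0.56 ± 0.29). In CPM neither gene's groups overlapped (Hoxc8 0.760 to 3.84 after and 4.87 to 6.96 before, Hoxc6 12.7 to 14.5 after and 15.1 to 23.6 before). In TPM both pairs of groups did overlap, and in set B alone the Hoxc6 value was -0.16.

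The 3′ end showed no common direction. Hoxc4, a cervical-domain gene, stood at 5.54, 4.33 and 6.43 TPM in after 5, 6 and 11, against 7.62, 4.10 and 9.20 TPM in before 5, 6 and 11, with a log2 fold change of -0.07 ± 0.37 (SE). Hoxc5 stood at 2.33, 1.34 and 0.56 TPM in after 5, 6 and 11, against 1.88, 0.71 and 2.69 TPM in before 5, 6 and 11 (0.07 ± 0.68). The direction of both changed with the libraries used. Hoxc4 was at -0.62 in set A alone and 0.44 in set B alone, and Hoxc5 at -0.24 in set A and 1.29 in set B.

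In CPM, 3 of the 10 members stood higher after transplantation with no overlap between the groups, where 3.35% of all 13512 genes did, and 2 stood lower with no overlap, where 2.98% did. In TPM the same 3 stood higher, where 2.69% of genes did, and 1, Hoxc10, stood lower, where 2.78% did. Since this contrast chose the cluster, nothing is read from that. All 10 members passed the filter on low counts. Hoxc12 did so only through its counts after transplantation, which fixed its positive value and its separation of the groups in advance. The log2 fold changes of the 10, with Hoxc12 among them, had a median of 0.13 with 6 positive and 4 negative. The median over all genes tested was 0.02. edgeR called 0 of 13512 genes (0%; smallest adjusted p 0.873, with 305 genes, 2.26%, at an unadjusted p under 0.05), and DESeq2 called 16 (0.119%). The unadjusted count depended on single libraries: it was 3545 without after 5, 159 without before 5 and 151 without before 11.

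**Figure D2:**
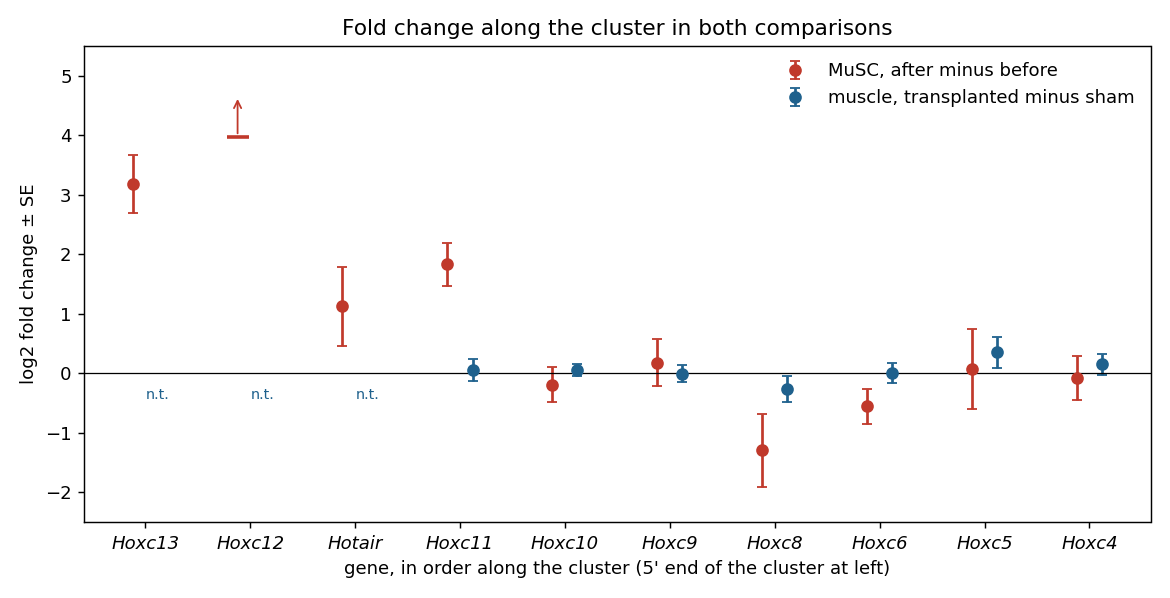
Log2 fold change ± SE of each member, in order along the cluster, for MuSCs after minus before transplantation (red, 3 libraries each, a description with no test) and for transplanted minus sham muscle (blue, 6 and 3 libraries). The arrow on Hoxc12 starts at 15.7-fold, the observed level after transplantation over a floor of 3 counts for the group before it. The mark n.t. stands for genes below the count filter in muscle. Apart from Hoxc12, the values in MuSCs run from 3.18 for Hoxc13 to -1.29 for Hoxc8, and in muscle they stay between -0.26 and 0.35.

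Within mouse numbers the 3 coding genes of the 5′ end were higher after transplantation in every pair. How many of all genes kept 1 direction in every pair was not counted. The cluster was chosen on these same libraries, so nothing is read from the directions given here. The difference in log2(CPM + 1) between the libraries of mice 5, 6 and 11 was 1.84, 2.28 and 2.73 for Hoxc13 and 0.81, 0.80 and 0.91 for Hoxc12. For Hoxc11 it was 0.93, 1.74 and 2.46. Hoxc8 was lower in every pair, by differences of -0.64, -0.60 and -2.18, and so was Hoxc6, by -0.61, -0.06 and -0.84. Hotair was higher in mice 5 and 6 (0.88 and 0.86) and lower in mouse 11 (-0.11). The 11 pair held the widest differences for Hoxc13, Hoxc11, Hoxc8 and Hoxc6, and it is also the pair whose libraries differ in naming style and in Xist, whose part in these differences was not tested.

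With the naming style as a term in the fit, the log2 fold change was 2.92 for Hoxc13, 1.70 for Hoxc11, 1.53 for Hotair, -1.11 for Hoxc8 and -0.43 for Hoxc6. In set A alone Hoxc13 was at 2.91 and Hoxc8 at -0.80, and in set B alone Hoxc13 was at 2.92, Hoxc11 at 2.09 and Hoxc8 at -1.43. Each of these kept the sign it had over all 6 libraries. Since the cluster was chosen on these libraries, a kept sign is a description and no support.

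**Figure D3:**
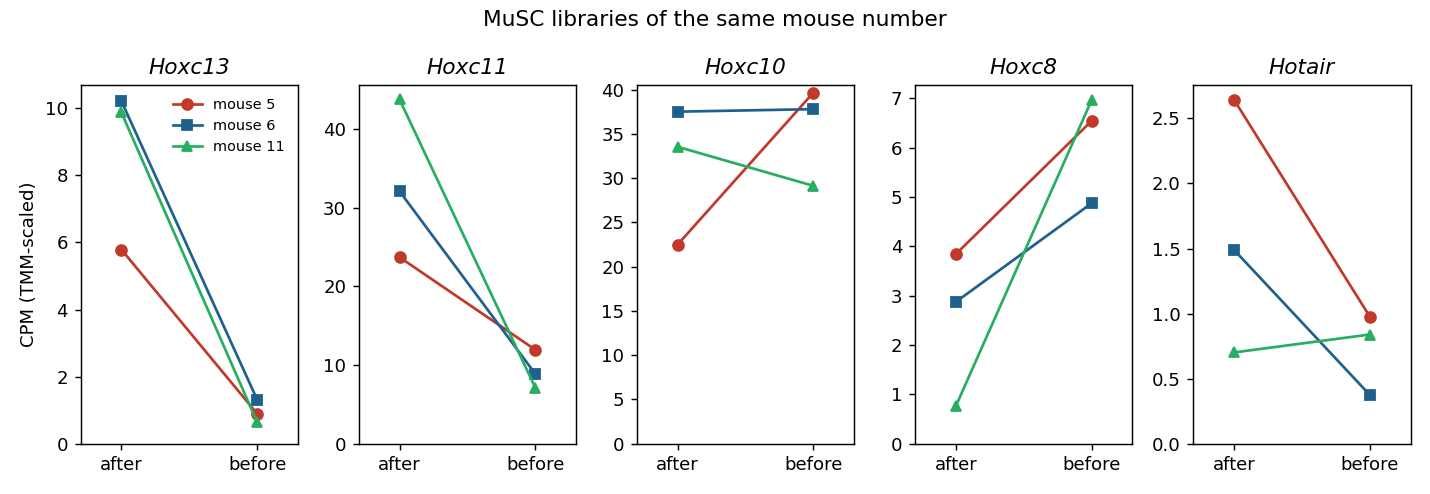
TMM-scaled CPM of Hoxc13, Hoxc11, Hoxc10, Hoxc8 and Hotair in MuSCs after and before transplantation, with a line for each mouse number (each panel has its own axis from 0). The lines of Hoxc13 and Hoxc11 lie higher at after in all 3 mice, those of Hoxc8 lie lower, and those of Hoxc10 and Hotair run in both directions.

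Because the members shared a library, their levels were also set against each other as shares of the summed TPM of the 9 coding genes. That sum was 76.5, 68.2 and 67.7 TPM in after 5, 6 and 11, against 92.2, 52.5 and 78.6 TPM in before 5, 6 and 11, so the groups overlapped in total HoxC RNA. Hoxc11, Hoxc12 and Hoxc13 together made up 30.9%, 31.6% and 39.5% of it after, against 10.7%, 9.9% and 7.3% before. Hoxc4, Hoxc5 and Hoxc6 together made up 33.4%, 26.4% and 25.5% after, against 40.3%, 33.0% and 50.1% before. The 5′ share separated the groups, and the 3′ share overlapped between after 5 and before 6. The leading gene was Hoxc10 in after 5, after 6, before 5 and before 6, Hoxc11 in after 11 and Hoxc6 in before 11. All 9 coding members had counts in every library after transplantation and 8 did in every library before it.

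Ordered by mean TPM after transplantation, the members ran Hoxc10 (19.1 ± 1.39, SD), Hoxc11 (19.0 ± 2.68), Hoxc6, Hoxc9, Hoxc4, Hoxc13, Hoxc8, Hoxc5, Hotair and Hoxc12. The library ranges of neighbours did not overlap between Hoxc6 and Hoxc9, Hoxc4 and Hoxc13, or Hoxc13 and Hoxc8. Before transplantation the order was Hoxc10 (25.8 ± 6.19), Hoxc6 (22.6 ± 8.71), Hoxc4, Hoxc11 (6.43 ± 2.48), Hoxc9, Hoxc8, Hoxc5, Hotair, Hoxc13 and Hoxc12. There the ranges did not overlap between Hoxc6 and Hoxc4, Hoxc8 and Hoxc5, or Hoxc13 and Hoxc12. Hoxc11 thus lay level with Hoxc10 after transplantation and between Hoxc4 and Hoxc9 before it. Hoxc13 lay above Hoxc8 after transplantation and below it before.

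**Figure D4:**
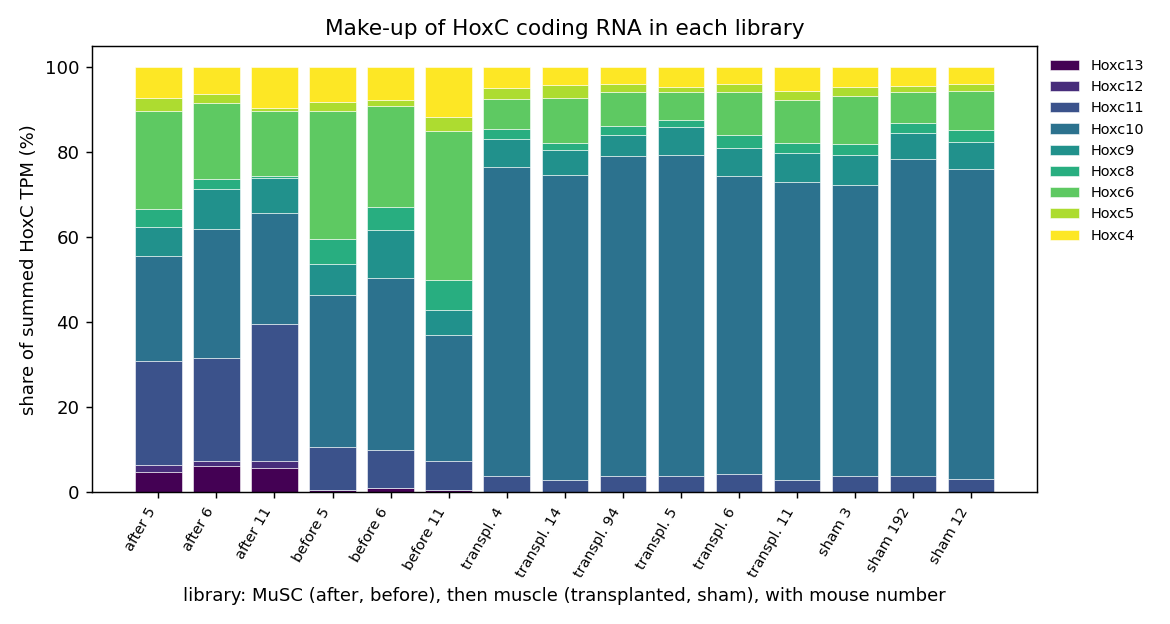
Share of each coding HoxC gene in the summed HoxC TPM of each library (stacked bars, %), for MuSCs after and before transplantation and for transplanted and sham quadriceps. The dark Hoxc11 to Hoxc13 segments take 30.9% to 39.5% after and 7.3% to 10.7% before, and Hoxc10 takes 68.6% to 75.4% in muscle.

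Whole quadriceps carried another HoxC pattern, with Hoxc10 far above the rest. In transplanted muscle Hoxc10 was at 48.8 to 58.9 TPM (median of the 6 libraries 57.1 TPM), against 45.7, 62.5 and 70.0 TPM in sham 3, 192 and 12. It made up 70.1% to 75.4% of the summed HoxC TPM in transplanted and 68.6% to 74.5% in sham muscle, against 24.7% to 30.2% in MuSCs after and 29.7% to 40.5% before transplantation. In bulk muscle, fewer cells of a type and less RNA per cell cannot be told apart.

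Hoxc13 and Hoxc12 had 0 counts in 9 of 9 muscle libraries. The floor of 3 counts is 0.131 to 0.166 CPM in libraries of transplanted mice and 0.159 to 0.166 CPM in those of shams, without TMM scaling. The muscle of mice 5, 6 and 11, taken after transplantation, was among these 9 libraries. The MuSCs of the same mouse numbers had 116 to 192 counts of Hoxc13 after transplantation. Hotair had 0.10 to 0.28 TPM in transplanted and 0.15 to 0.35 TPM in sham muscle, on 3 to 10 counts. Hoxc11 averaged 2.72 ± 0.46 TPM in transplanted (SD, n = 6) and 2.93 ± 0.40 TPM in sham muscle (n = 3), a level below that of any MuSC library (4.67 TPM in before 6, the lowest). The 3 genes of the far 5′ end were thus below the count filter in muscle, and Hoxc11 was above it.

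Of the other members, Hoxc6 averaged 6.60 ± 1.17 TPM in transplanted and 7.49 ± 1.32 TPM in sham muscle. Hoxc9 averaged 4.70 ± 0.48 TPM in transplanted and 5.24 ± 0.65 TPM in sham muscle, and Hoxc4 averaged 3.43 ± 0.45 TPM in transplanted and 3.49 ± 0.37 TPM in sham muscle. Hoxc5 averaged 1.62 ± 0.58 TPM in transplanted and 1.48 ± 0.22 TPM in sham muscle. Hoxc8 averaged 1.59 ± 0.34 TPM in transplanted and 2.11 ± 0.54 TPM in sham muscle. Ordered by mean TPM in transplanted muscle, the members ran Hoxc10, Hoxc6, Hoxc9, Hoxc4, Hoxc11, Hoxc5, Hoxc8 and Hotair. Hoxc10 stood apart from Hoxc6 and Hotair from Hoxc8 in every library, and the library ranges of each of the other neighbours in that order overlapped.

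Between transplanted and sham muscle, none of the 7 members above the filter on low counts passed the test. The values were fitted with the deposited table as a term, because the muscle libraries came in 2 tables. edgeR's quasi-likelihood test called 0 of the 7 after Benjamini-Hochberg adjustment over 14375 genes, of which it called 0 (0%; 1018, or 7.08%, at an unadjusted p under 0.05), and DESeq2 called 6 genes (0.0418%). The unadjusted count was 499 without sham 12 and 626 with no table term. At an unadjusted p under 0.05 edgeR also had 0 of the 7. Groups overlapped in each of the 7, where 2.11% of all genes had groups that did not.

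Hoxc8 had the most negative log2 fold change, -0.26 ± 0.22 (SE; 95% interval -0.74 to 0.22, edgeR adjusted p = 0.814), from 2.48 ± 0.609 CPM in transplanted against 2.86 ± 0.518 CPM in sham muscle. Hoxc5 had the highest, 0.35 ± 0.26 (-0.21 to 0.92, edgeR adjusted p = 0.777), followed by Hoxc4 with 0.15 ± 0.18 (-0.24 to 0.55, adjusted p = 0.875). Hoxc10, with the most counts, had the narrowest interval, -0.16 to 0.28 around 0.06 (edgeR adjusted p = 0.914). The interval of Hoxc11 was -0.35 to 0.45 around 0.05 (edgeR adjusted p = 0.962). It holds for whole muscle, where MuSC markers were low, and for another contrast, so it does not bear on the MuSC value. Hoxc6 (0.00 ± 0.17, interval -0.37 to 0.37) and Hoxc9 (-0.01 ± 0.14, -0.31 to 0.30) lay nearest 0. The median over the 7 was 0.05, beside 0.00 over all genes tested.

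Markers of other cell types were summed in each library. Those of fibroadipogenic progenitors, the connective tissue cells of muscle, 8 genes in all, summed to 55.7, 3.82 and 6.48 TPM in after 5, 6 and 11, against 13.5, 5.74 and 3.62 TPM in before 5, 6 and 11. In after 5 the sum was nearly all Ly6a (54.2 TPM), a surface antigen gene that other cell types also express. Of the other listed genes, Dpt, Dcn, Lum and Dpp4 were at 0 in all 3 libraries after transplantation. Pdgfra stood at 0.98, 0.01 and 0.12 TPM in after 5, 6 and 11, against 0.24, 0.14 and 0.05 TPM in before 5, 6 and 11. Col1a1 was highest in before 5, at 7.03 TPM. Keratinocyte markers, listed because Hoxc13 is a gene of the hair follicle, summed to 27.7, 7.26 and 2.50 TPM in after 5, 6 and 11, against 12.6, 6.08 and 10.4 TPM in before 5, 6 and 11. Krt14, Krt1 and Krt15 were at 0 in all 6 MuSC libraries. Most of the sum in after 5 was Perp (16.3 TPM) and Dsp (9.28 TPM). Perp was at most 1.79 TPM in the other MuSC libraries, while Dsp reached 6.76 TPM in before 5 and 6.24 TPM in before 11. Without after 5, the library with the highest sum for both lists, the log2 fold change was 3.39 for Hoxc13 and 2.01 for Hoxc11. For Hotair it was 0.55, against 1.13 over all 6 libraries. The cluster was chosen on this contrast, so nothing is read from these values about the source of the difference. Mature myofibre markers summed to 7220, 5087 and 897 TPM in after 5, 6 and 11, against 8311, 12209 and 3904 TPM in before 5, 6 and 11, and the part of any of these lists in the members' values was not tested. In muscle, fibroadipogenic markers summed to 213 to 278 TPM in transplanted and 275 to 445 TPM in sham libraries, and adipocyte markers to 136 to 506 TPM in transplanted and 188 to 1094 TPM in sham libraries. Their part in the muscle values was not tested either.

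The genes of the HoxA, HoxB and HoxD clusters, which share the positional code, were fitted for comparison. Since edgeR called 0 of 13512 genes in MuSCs and 0 of 14375 in muscle, no list here or below could hold a call. In MuSCs 14 of 30 passed the filter, 7 with positive and 7 with negative values (median -0.03), and 0 were called. At the upper end were Hoxd8 (3.76 ± 1.06 in log2 fold change, 4.25 CPM after and 0.305 CPM before on average) and Hoxb2 (2.67 ± 1.33), and at the lower end Hoxa5 (-0.53 ± 0.49) and Hoxa9 (-0.38 ± 0.26). Hoxd8 was uneven between libraries, at 4.65, 0.32 and 1.81 TPM in after 5, 6 and 11, against 0.71, 0.34 and 0.04 TPM in before 5, 6 and 11. So was Hoxb2, at 1.75, 2.24 and 0.13 TPM in after 5, 6 and 11, against 0.22, 0.46 and 0 TPM in before 5, 6 and 11. In CPM, 1 of the 14, Hoxd8, stood higher after transplantation with no overlap, and 1, Hoxa9, stood lower with no overlap. In TPM the groups of both overlapped. Hoxb6, Hoxb7, Hoxb8 and Hoxb9 were below the filter and were singled out after their values were seen. They stood at 8.25, 13.7, 8.85 and 9.50 TPM in after 6, and at no more than 1.34 TPM in any other MuSC library. Hoxa10 and Hoxa11, the paralogues of Hoxc10 and Hoxc11 in the HoxA cluster, were at 0.02 and -0.15. The difference between Hoxa11 and Hoxc11 was not tested. In muscle 19 of 30 were tested and 0 were called (9 positive, 10 negative, median -0.05), with Hoxa13 at 0.95 ± 0.44 and Hoxb5 at -0.98 ± 0.39.

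Genes beside the cluster on the chromosome were fitted as well. Of 10 neighbours 8 were tested in MuSCs, 6 positive and 2 negative (median 0.25) with 0 called: Atp5g2, a subunit of ATP synthase, was at 0.67 and the integrin gene Itga5 at 0.55, and Smug1, a DNA repair glycosylase, was at -0.02 and the heterochromatin protein gene Cbx5 at -0.61. In muscle 5 of 8 were positive (median 0.06) and 0 were called.

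The regulators through which Hox clusters are known to be controlled, and the partners of Hox proteins, were followed as lists. None of their tested members was called by edgeR, which called 0 of 13512 genes in MuSCs and 0 of 14375 in muscle. The absence of calls therefore says nothing particular about these lists. In MuSCs, Polycomb repressive complex 2 had 4 positive and 6 negative members of 10 (median -0.19), with its accessory subunit gene Phf19 highest at 1.28 ± 0.62. Polycomb repressive complex 1 had 8 positive and 4 negative of 12 (median 0.07). The activating Trithorax group with the H3K27 demethylases had 4 positive and 4 negative of 8 (median 0.05), and the LSD1 and CoREST genes 1 positive and 2 negative of 3 (median -0.34). The TALE cofactors, homeodomain proteins that bind DNA together with Hox proteins, had 5 positive and 4 negative of 9 (median 0.10). In muscle the medians of these 5 lists lay between -0.08 and 0.09.

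Foxn1, a transcription factor gene that Hoxc13 is known to activate in hair and nail, was the only tested gene of 4 listed Hoxc13 targets in MuSCs, with a log2 fold change of 0.20. Of the genes of limb position 7 of 11 were tested in MuSCs, 4 positive and 3 negative (median 0.10) with 0 called. The highest was En1 (2.08 ± 1.19), a gene of the ventral limb surface with 0.06, 2.94 and 4.14 TPM in after 5, 6 and 11 against 0.94, 0.59 and 0.75 TPM in before 5, 6 and 11, and the lowest was Tbx1 (-2.19 ± 1.07), a regulator of head and limb muscle. Tbx4, a hindlimb gene, was at 0.10.

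As a description of likeness, log2(TPM + 1) was correlated over the 6 MuSC libraries, which differ in depth and naming style and fall into the compared groups, among 12181 genes. For Hoxc11 the highest values belonged to Tmem161a and Sorcs2 (Pearson r = 0.99 each) and Gm36328 (0.98), and for Hoxc13 to Ptgr1 and Dpy30 (0.98 each) and Sorcs2 (0.97). Among the members, Hoxc13 was most like Hoxc12 (0.97) and Hoxc11 (0.93) and least like Hoxc8 (-0.76), with Hotair at 0.38. Over the 9 muscle libraries, Hoxc10 was most like Calm3 and Szrd1 (0.97 each) and Foxo4 (0.96) among 11714 genes, and its nearest members were Hoxc11 (0.57) and Hoxc9 (0.51).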

How the data were processed

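The authors deposited 3 tables with estimated counts and TPM for each gene, per the file headers, 1 of MuSCs and 2 of muscle. Trizol was used for extraction and the NEBNext Ultra kit for the libraries, per the labels' protocols. What aligner, quantifier and annotation release were used was not given in the sources used here. GRCm38 and mm10 are listed in the submitters' processing notes, but 1409 of 52029 genes shared with GENCODE M21 had its coordinates, so positions from the deposited tables are given only as order and distance. Another 3 columns matched no sample's labels and were not used.

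Groups came from the labels, sham and transplanted muscle from the titles. Beyond the mouse numbers nothing says that libraries were separate animals, so p-values measure the spread between these libraries. The members and gene lists were chosen with earlier results of these data known. All 10 members are named whatever their values. For other lists the text gives counts, the median and up to 4 extremes.

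Estimated counts, deposited by the authors, were rounded, filtered (filterByExpr, minimum count 10), scaled by TMM and fitted with edgeR 4.0.16 in R 4.3.3, with Benjamini-Hochberg adjustment over all genes and a threshold of 0.05. Muscle fits carried the deposited table as a term. The fits were tested on simulated data. TPM, as deposited, served for levels between genes and across tables. Alternatives were DESeq2 1.42.0, other scaling, no filter, mouse number, naming style, table, and leaving out each library. The mouse numbers pair the MuSC libraries by the labels, since the transplantation was autologous. Deviations of same-numbered libraries from their group means correlated at 0.30 (mouse 5), 0.36 (mouse 6) and -0.40 (mouse 11). Libraries of different mouse numbers but the same naming style correlated more highly, at 0.55 (after 11 with before 6) and 0.49 (after 5 with before 11). The remaining pairs of different mouse numbers lay between -0.68 and -0.16.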

Additional observations from a re-analysis of the deposited data

How the results depend on the processing

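In MuSCs, where edgeR called 0 genes, DESeq2 called 16 and set A alone gave 43, while leaving out each library gave 0 each time (151 to 3545 genes at an unadjusted p under 0.05, the highest without after 5). In muscle, where edgeR also called 0, DESeq2 called 6, no filter on low counts gave 12, the table with 2 shams alone gave 1 and the table with 1 sham alone 41 (its only sham taken to vary as much as the transplanted ones). Leaving out each muscle library gave 0 to 4, with 4 without sham 192 and 2 without transplanted 94 (499 to 1357 unadjusted, the lowest without sham 12). The members' median log2 fold change in MuSCs, 0.13, was -0.20 in set A alone and 0.86 in set B alone, and 0.00 to 0.44 when a library was left out (0.44 without before 11). In muscle the median of 0.05 ran from 0.01 to 0.13. With the mouse number as a replicate block, 0 genes were called in MuSCs (214 at an unadjusted p under 0.05), the members' median was 0.19, and no call changed. Over all MuSC alternatives Hoxc13 ran from 2.91 to 3.48, Hoxc11 from 1.32 to 2.09, Hotair from 0.55 to 1.55, Hoxc8 from -1.76 to -0.80, Hoxc6 from -0.72 to -0.16 and Hoxc10 from -0.60 to -0.02. These 6 kept their sign, while Hoxc4 (-0.62 to 0.44), Hoxc5 (-0.33 to 1.29) and Hoxc9 (-0.16 to 0.41) took both signs. The cluster was chosen on the MuSC libraries, so the kept signs are a description only. The adjusted p of the 7 members tested in muscle was at least 0.636 under every alternative. The cause of these changes was not tested. Hoxc12, with 14 or 15 counts in a library, and Hotair are limited by depth.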

Other observations

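Pitx1, the transcription factor gene that sets hindlimb identity in the embryo, was below the count filter in MuSCs and was singled out after its values were seen. It stood at 23.1 TPM in after 5, at no more than 0.46 TPM in the other 5 MuSC libraries and at no more than 0.16 TPM in the muscle libraries. After 5 was also the library with the highest Hotair (2.10 TPM) and with 54.2 TPM of Ly6a, 16.3 TPM of Perp and 9.28 TPM of Dsp. In TMM-scaled CPM, Hoxc13 stood at 5.79, 10.2 and 9.88, and Hoxc11 at 23.7, 32.1 and 43.8, in after 5, 6 and 11. Both were lowest in after 5 on that scale. In TPM Hoxc13 was again lowest in after 5, but Hoxc11 was not, at 18.7, 16.5 and 21.8 TPM in after 5, 6 and 11. The part of after 5 in the members' values was not tested.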
